A study of Mus musculus with 374 samples.

Results

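The genes of the T cell receptor and its CD3 complex were followed across 5 sorted populations of mouse blood cells measured by CEL-seq2, a plate-based single-cell method that tags each captured mRNA near its 3′ end with a unique molecular identifier (UMI). The 8 genes were chosen by name, and 7 of them had a row among the 19829 mouse genes counted: Trac, Trbc1, Trbc2, Trdc, Cd3d, Cd3e and Cd3g. Cd247, which encodes CD3 zeta, was not analysed here. All cells came from 1 C57BL/6 female aged 10 to 13 weeks, and each population was 1 sample. T lymphocytes (43 wells) were gated from the thymus as CD3+ FSC-Alow cells, where FSC-A is the forward scatter area. Bone marrow gave B lymphocytes (44 wells; B220+ FSC-Alow), granulocytes (96 wells; Mac1+ Gr1+), erythroblasts (96 wells; Ter119+ CD44+ FSC-Amid/high) and progenitor/stem cells (95 wells; Lin- Kit+ Sca1+). Tissue and population therefore cannot be told apart for T lymphocytes, and CD3 protein itself was the sorting marker.

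The receptor on most T cells is a heterodimer of alpha and beta chains, and a smaller lineage carries gamma and delta chains instead. Each chain joins a rearranged variable part to a constant part encoded by Trac (alpha), Trbc1 or Trbc2 (beta), or Trdc (delta). The chains have short cytoplasmic tails and signal through the CD3 gamma, delta, epsilon and zeta subunits, whose tails carry ITAM motifs phosphorylated by Lck and bound by Zap70. In the thymus the beta chain is rearranged before the alpha chain, and surface CD3 increases as cells mature.

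Summed depth was 200396 UMIs in T lymphocytes, 135808 in B lymphocytes, 403506 in granulocytes, 666728 in erythroblasts and 834812 in progenitor/stem cells. Median depth per well ranged from 3028.5 UMIs in B lymphocytes to 7959 in progenitor/stem cells, and was 4347 (426–10874) in T lymphocytes. No well was left out for low depth, and the outlier removal described by the authors was not applied. The shallowest granulocyte well held 8 UMIs, and 86 of 96 granulocyte and 33 of 44 B lymphocyte wells reached 2000 UMIs. No cell barcode was shared between wells. The label of the T lymphocytes was checked on 6 markers outside the complex (Lck, Cd4, Cd8a, Cd8b1, Tcf7, Bcl11b), which summed to 3653 UMIs per 1000000 UMIs on mouse genes (CPM) there and to 36.0–66.3 CPM elsewhere, and no T lymphocyte well was at 0. Markers of other cells were also present in the T lymphocyte wells: 4 erythroblast genes summed to 13084 CPM, against 8936–20610 CPM in the other 3 non-erythroid populations, 4 granulocyte genes to 2221 CPM, 3 progenitor/stem genes to 94.8 CPM and 5 B lymphocyte genes to 49.9 CPM. Well B2 of the B lymphocytes had a CD3 fluorescence of 7905, inside the T lymphocyte range of 4889–25573, with 0 member UMIs and 0 T marker UMIs among 2652 UMIs. Leaving it out together with well A8, whose Gr1 fluorescence was the highest of the B lymphocyte wells, gave a T over B log2 ratio of 5.72 in place of 5.80.

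The 7 genes lie at 3 loci, given here on GRCm38 with GENCODE M21 annotation. Trac (ENSMUSG00000076928) is at chr14:54220521-54224206 on the plus strand, and Trdc (ENSMUSG00000104876; chr14:54142851-54148868, plus) ends 71.7 kb before it inside the same locus. Trbc1 (ENSMUSG00000076490; chr6:41538218-41539881, plus) ends 6849 bases before Trbc2 (ENSMUSG00000076498; chr6:41546730-41548352, plus). The CD3 genes span 40.1 kb of chromosome 9: Cd3g (ENSMUSG00000002033; chr9:44969572-44980431, minus), Cd3d (ENSMUSG00000032094; chr9:44981786-44987339, plus) and Cd3e (ENSMUSG00000032093; chr9:44998740-45009627, minus). Cd3g and Cd3d are transcribed away from each other from starts 1355 bases apart. Cd3e overlaps the annotated gene Gm48720 on the same strand, which held 1 UMI in T lymphocytes, and Gm48719 on the opposite strand, and Trdc overlaps Gm43434 and Trdv5.

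Trbc1 and Trbc2 are near-identical copies, so their sequences are shown to make plain how far reads can tell them apart. Their annotated coding parts are both 518 bases long and 95.6% identical, and 19 of the 23 mismatches fall in the last 120 bases, coding positions 399 to 518. Those stretches follow 5′ to 3′ from the GENCODE M21 transcripts, with the differing bases in capitals.
Trbc1: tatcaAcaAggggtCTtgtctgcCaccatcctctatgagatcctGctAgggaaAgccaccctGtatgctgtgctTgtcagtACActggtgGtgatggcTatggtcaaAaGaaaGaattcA
Trbc2: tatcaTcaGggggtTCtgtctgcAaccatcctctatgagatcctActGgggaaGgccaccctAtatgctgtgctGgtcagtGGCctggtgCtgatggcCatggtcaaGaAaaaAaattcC
Beyond the coding part the transcripts diverge, with 53.3% identity over an alignment of 219 and 174 bases and no shared run longer than 8 bases. A 3′ read that reaches that part can be assigned to 1 gene, whereas a read further upstream in the constant region meets only 4 mismatches and could be split between the copies or dropped.

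The 250 bases before the RefSeq starts of the 3 CD3 genes are shown because these genes share a locus and were all highest in T lymphocytes. Sequences are from RefSeq on GRCm38.p6, each written 5′ to 3′ on the strand of its gene. The RefSeq start of Cd3e lies inside the GENCODE gene, so the end of its window overlaps the gene coordinates on GENCODE M21. Capitals mark matches, on either strand, to the E-box CANNTG, the RUNX core TGTGGT and the TCF/LEF core CTTTGA.
Cd3g (chr9:44980432-44980681, minus): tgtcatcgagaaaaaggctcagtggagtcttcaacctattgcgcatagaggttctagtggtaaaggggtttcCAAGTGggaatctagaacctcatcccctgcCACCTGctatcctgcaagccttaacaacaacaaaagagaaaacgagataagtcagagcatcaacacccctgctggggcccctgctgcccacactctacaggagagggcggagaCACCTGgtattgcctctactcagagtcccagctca
Cd3d (chr9:44981536-44981785, plus): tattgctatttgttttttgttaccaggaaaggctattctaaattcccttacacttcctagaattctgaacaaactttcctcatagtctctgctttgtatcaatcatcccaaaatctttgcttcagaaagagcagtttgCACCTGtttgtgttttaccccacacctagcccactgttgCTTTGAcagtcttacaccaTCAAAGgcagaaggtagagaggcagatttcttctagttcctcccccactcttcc
Cd3e (chr9:45009612-45009861, minus): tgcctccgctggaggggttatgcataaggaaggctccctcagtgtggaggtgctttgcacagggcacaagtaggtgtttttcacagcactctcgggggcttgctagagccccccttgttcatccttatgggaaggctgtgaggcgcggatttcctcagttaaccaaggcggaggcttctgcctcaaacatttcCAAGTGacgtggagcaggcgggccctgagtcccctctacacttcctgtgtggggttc
The window of Cd3g held 3 matches to CANNTG and those of Cd3d and Cd3e 1 each. Cd3d also held 2 matches to CTTTGA, and no window held TGTGGT. Among the same windows of 32851 RefSeq promoters, 66.2% held CANNTG, 13.8% held CTTTGA and 14.0% held TGTGGT. The match is a description of letters only.

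In T lymphocytes the 7 genes together gave 1151 UMIs, or 5744 CPM with an exact 95% Poisson interval of 5417–6085. This and every other interval given cover counting error only, since each population was 1 sample from 1 mouse and no test between animals was possible. Granulocytes followed at 64 UMIs and 159 CPM (122–203), B lymphocytes at 14 UMIs and 103 CPM (56.4–173), progenitor/stem cells at 79 UMIs and 94.6 CPM (74.9–118), and erythroblasts at 51 UMIs and 76.5 CPM (57.0–101). Neighbours among these 4 had overlapping intervals, whereas the granulocyte interval lay above those of progenitor/stem cells and erythroblasts, and the T lymphocyte interval above all of them. The T lymphocyte level was 36.2-fold that of granulocytes (log2 ratio 5.18, 4.81–5.56), 55.7-fold that of B lymphocytes (5.80, 5.05–6.68), 60.7-fold that of progenitor/stem cells (5.92, 5.59–6.27) and 75.1-fold that of erythroblasts (6.23, 5.83–6.66). Scaling by TMM lowered the ratio to 4.43 over granulocytes and 5.39 over erythroblasts.

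All 6 members with at least 50 UMIs in the pair of populations compared were at least 4-fold higher in T lymphocytes, in each of the 4 comparisons. Each of the 6 met this minimum through T lymphocytes alone, with 64 UMIs or more there, and these cells were sorted on CD3. The count of 6 therefore describes the levels and is no independent test. Over all genes that met this minimum, the share past the same fold was 7.16% (79 of 1103) against B lymphocytes, 8.16% (160 of 1961) against granulocytes, 11.2% (291 of 2609) against erythroblasts and 2.76% (112 of 4060) against progenitor/stem cells. The members' median log2 ratios were 4.96, 5.66, 6.59 and 6.59 in that order, with every sum under 3 UMIs raised to 3, against 0.29, 0.33, -0.02 and -0.22 over all genes. Trdc was below the minimum in every pair and was not tested.

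Trac, the alpha chain constant gene, gave 265 UMIs in T lymphocytes (1322 CPM, 1168–1492) and 2, 9, 9 and 14 UMIs in B lymphocytes, granulocytes, erythroblasts and progenitor/stem cells. A T lymphocyte well held 0 to 20 Trac UMIs with a median of 5, and 41 of 43 wells held at least 1. The T lymphocyte level was above each other population by a log2 ratio of 5.89 (4.94–7.03) or more, the smallest being over granulocytes. Of the beta chain constant genes, Trbc2 gave the highest count of any member, 455 UMIs (2270.5 CPM, 2067–2489), with 0 to 40 per well and a median of 9. Trbc2 was seen in 42 of 43 T lymphocyte wells, and among the 6 tested members its log2 ratios were the smallest over progenitor/stem cells, at 5.16 (4.75–5.60), over granulocytes, at 4.28 (3.85–4.75; 3.54 with TMM factors), and over erythroblasts, at 5.48 (4.97–6.02; 4.64 with TMM factors). Trbc1 gave 163 UMIs (813 CPM, 693–948), with 0 to 14 per well and a median of 1, and was seen in 27 wells. Outside T lymphocytes Trbc1 had 2 UMIs in B lymphocytes, 3 in granulocytes, 2 in erythroblasts and 5 in progenitor/stem cells, with a log2 ratio of 7.09 (5.83–8.73) over the last.

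Cd3g, the CD3 gamma chain, gave 116 UMIs in T lymphocytes (579 CPM, 478–694), with 0 to 7 per well, a median of 2 and 41 of 43 wells positive. Elsewhere it had 2 UMIs in erythroblasts and 0 in the other 3 populations, the fewest of the 6 members that reached 50 UMIs. By a limit of 3 UMIs for a count of 0, the T lymphocyte level was at least 26.2-fold higher than in B lymphocytes, at least 77.9-fold higher than in granulocytes and at least 161-fold higher than in progenitor/stem cells. Cd3d, the delta chain, gave 85 UMIs (424 CPM, 339–524), with 0 to 5 per well, a median of 2 and 37 positive wells, and 1, 4, 2 and 1 UMIs in B lymphocytes, granulocytes, erythroblasts and progenitor/stem cells. Cd3e, the epsilon chain that pairs with both of the others, gave 64 UMIs (319 CPM, 246–408), with 0 to 6 per well, a median of 1 and 29 positive wells. Elsewhere Cd3e had 6 UMIs in progenitor/stem cells, 2 in erythroblasts, 1 in B lymphocytes and 0 in granulocytes. The 3 CD3 genes together gave 265 UMIs in T lymphocytes, the same number as Trac alone, and their log2 ratio was 6.49 over B lymphocytes, 7.06 (5.69–8.95) over granulocytes, 7.20 (6.06–8.66) over erythroblasts and 7.30 (6.24–8.63) over progenitor/stem cells. Trdc, the delta chain constant gene, gave 3 UMIs in 3 T lymphocyte wells (15.0 CPM, 3.09–43.7) and 1 UMI in granulocytes, too few for a ratio.

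**Figure D1:**
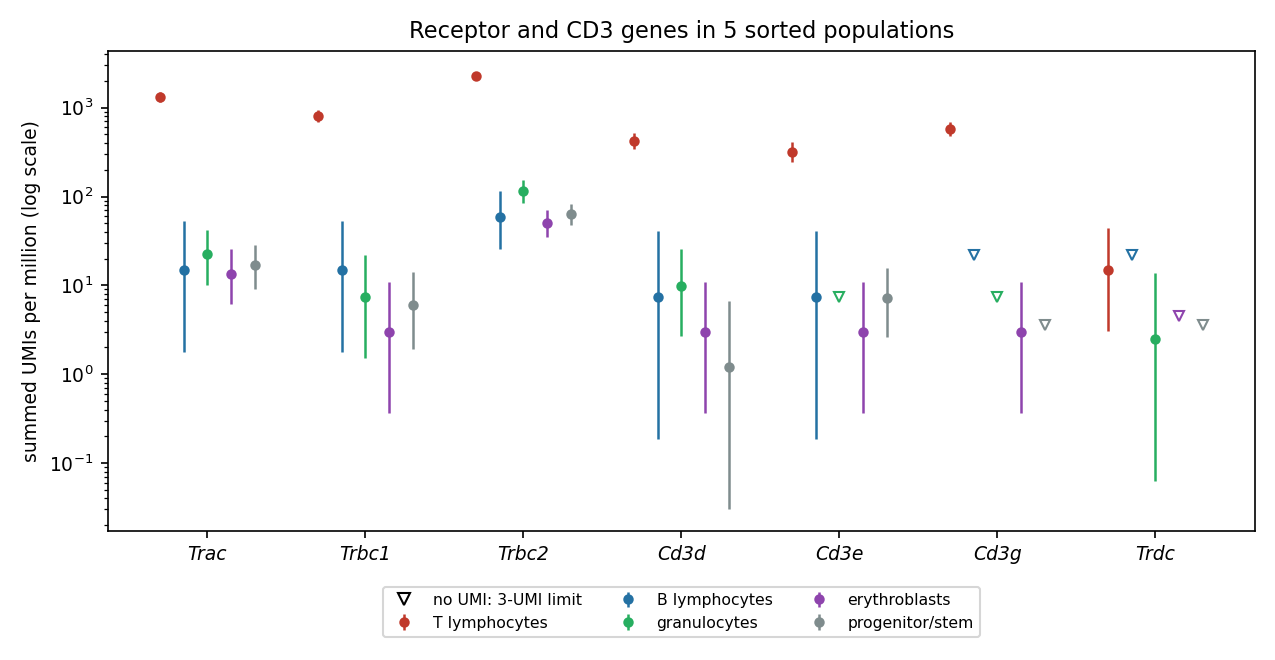
Summed UMIs in CPM on a log axis for each member (x axis) in the 5 sorted populations. Points are levels with exact 95% Poisson intervals, and open triangles mark the 3-UMI limit where no UMI was seen; T lymphocytes sit highest for 6 genes, from 319 CPM for Cd3e to 2270.5 CPM for Trbc2, while Trdc is at 15.0 CPM.

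Within T lymphocytes the captured levels ran in the order Trbc2, Trac, Trbc1, Cd3g, Cd3d, Cd3e and Trdc on the CPM scale. UMIs count 3′ ends, so gene length does not enter, but capture can differ between transcripts and was not measured. Intervals of the neighbours Trbc1 and Cd3g overlapped at their ends, as did those of Cd3g and Cd3d and of Cd3d and Cd3e, and the other neighbours were apart. The share of wells with a UMI followed depth as well as level: after thinning each well to 2000 UMIs, which left out 1 T lymphocyte well, the expected share was 96.6% for Trbc2, 87.7% for Trac, 73.7% for Cd3g, 61.5% for Cd3d, 53.2% for Trbc1 and 45.1% for Cd3e, against unthinned shares of 97.7%, 95.3%, 95.3%, 86.0%, 62.8% and 67.4%.

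Outside T lymphocytes, most of the member UMIs belonged to Trbc2. Trbc2 gave 8 UMIs in B lymphocytes, 47 in granulocytes, 34 in erythroblasts and 53 in progenitor/stem cells, or 58.9 (25.4–116), 116 (85.6–155), 51.0 (35.3–71.3) and 63.5 (47.6–83.0) CPM. These UMIs were spread over many wells: 8 of 44 (18.2%), 38 of 96 (39.6%), 28 of 96 (29.2%) and 36 of 95 (37.9%), mostly at 1 UMI each. At 2000 UMIs per well the expected shares were 9.82%, 23.4%, 12.1% and 12.7%. Trbc2 made up 142 of the 208 member UMIs of these 4 populations (68.3%, exact binomial 95% interval 61.5–74.5), compared with 39.5% (36.7–42.4) in T lymphocytes, and the intervals did not overlap. By population the share was 57.1% (28.9–82.3) in B lymphocytes, 73.4% (60.9–83.7) in granulocytes, 66.7% (52.1–79.2) in erythroblasts and 67.1% (55.6–77.3) in progenitor/stem cells. Of the beta constant UMIs alone, Trbc2 held 73.6% (70.0–77.1) in T lymphocytes, 80% (44.4–97.5; 8 of 10) in B lymphocytes, 94.0% (83.5–98.7) in granulocytes, 94.4% (81.3–99.3) in erythroblasts and 91.4% (81.0–97.1) in progenitor/stem cells. Both shares lay above the T lymphocyte interval in granulocytes, erythroblasts and progenitor/stem cells, whereas the B lymphocyte intervals overlapped it, and the source of the Trbc2 UMIs was not tested.

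A few wells held more. Progenitor/stem well M14 had 13 member UMIs (4 Trac, 1 Trbc1 and 8 Trbc2) and 3 T marker UMIs among 20193 UMIs, with a CD3 fluorescence of 407, below the median of 464 of its population. The next wells of that population held 5 (K6), 4 (N12), 4 (N19) and 3 (L16), and granulocytes and erythroblasts reached 3 and B lymphocytes 2. Without M14 the T over progenitor/stem log2 ratio was 6.15 in place of 5.92, and Trbc2 held 68.2% (55.6–79.1) of the remaining 66 member UMIs.

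In single T lymphocyte wells the transcripts of the complex were found together. A well held 0 to 67 member UMIs with a median of 28, or 0, 5560 and 11662 CPM as the lowest, median and highest. The lowest was well P4, which had 426 UMIs in all, and the highest count was in O4, the deepest well at 10874 UMIs. Trac and a beta constant gene were both seen in 41 of 43 wells, and at least 1 CD3 gene in 42. All 5 of Trac, a beta constant gene, Cd3d, Cd3e and Cd3g were seen in 26 wells, 4 of them in 12 wells and 3 of them in 4 wells. Across the 43 wells, which share a mouse, a sort and a library, Spearman's rho between Trac and the summed beta constant CPM was 0.26, and between Trac and the summed CD3 CPM 0.25.

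A completed beta rearrangement joins its segments to either Trbc1 or Trbc2. The UMIs of both genes were compared in the 40 wells with at least 5 UMIs on both genes together. Such counts do not by themselves show which gene was joined, since transcripts of joined and unjoined constant genes cannot be told apart in them. Trbc2 held at least 90% of the UMIs of both genes in 18 wells, Trbc1 in 0, and 22 wells lay between. Wells at the Trbc2 end included O4 with 40 Trbc2 and 1 Trbc1 UMIs, and O10 with 20 and 0. Trbc1 was at 0 in 14 of the 40 wells and Trbc2 in 0. Trbc1 held over 50% in 9 wells, reaching 73.7% in O5 (14 Trbc1 and 5 Trbc2 UMIs), 73.3% in O14 (11 and 4), 71.4% in O3 (10 and 4), 68.8% in O6 (11 and 5) and 66.7% in O20 (14 and 7). These 5 wells still held 4 to 7 Trbc2 UMIs. Spearman's rho between the CPM of both genes was -0.06 over 43 wells. How far split reads of the near-identical copies enter these counts was not tested.

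**Figure D2:**
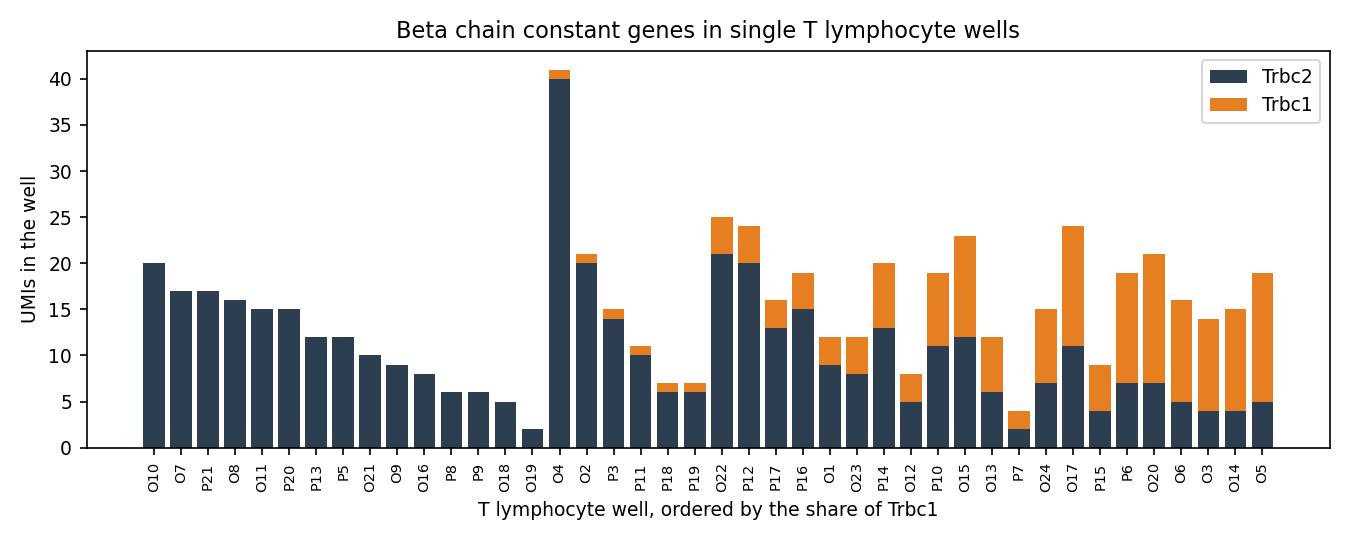
Stacked UMIs of Trbc2 and Trbc1 (y axis) in each T lymphocyte well (x axis, ordered by the Trbc1 share). Trbc2 is present along the whole range up to the well with a 73.7% share of Trbc1, whereas Trbc1 is at 0 in the wells on the left.

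Rearranging gene segments had their own rows, and 58 of 60 such V or J rows held a UMI in T lymphocytes. They gave 184 UMIs there, in 36 of 43 wells, and all 60 rows gave 8 UMIs in the other populations together. Alpha joining segments (Traj) made up 148 of the 184, in 33 wells, from 30 rows. Alpha variable segments (Trav) gave 16 UMIs from 15 of 16 rows, beta variable segments (Trbv) 11 UMIs from 7 rows and beta joining segments (Trbj) 8 UMIs from 5 rows. The delta segments gave 1 UMI (Trdj2), and gamma segments were not analysed here.

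The Traj UMIs were concentrated on 4 segments, which held 98 of 148 (66.2%), while the next, Traj33, held 6. These are printed 5′ to 3′ from the GENCODE M21 transcripts because they carry most of the signal, with capitals for the codons of the Phe-Gly-X-Gly motif of joining segments, searched with Phe as TTT.
Traj18: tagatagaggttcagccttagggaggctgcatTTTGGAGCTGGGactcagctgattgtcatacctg
Traj49: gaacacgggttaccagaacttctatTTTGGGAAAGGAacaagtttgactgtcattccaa
Traj27: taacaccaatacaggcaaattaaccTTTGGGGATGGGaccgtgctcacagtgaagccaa
Traj12: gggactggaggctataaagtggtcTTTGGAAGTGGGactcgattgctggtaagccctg
All 4 hold the motif on the coding strand, as do 35 of the 51 annotated Traj genes that are not pseudogenes.

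Traj18 (chr14:54200777-54200842, 19.7 kb before the start of Trac), the joining segment also used by the invariant receptor of natural killer T cells, gave 34 UMIs in 21 wells with at most 4 per well. Traj27 (chr14:54192303-54192361, 28.2 kb before Trac) gave 24 UMIs in 16 wells with at most 3, and Traj12 (chr14:54206553-54206610, 13.9 kb) gave 13 UMIs in 9 wells with at most 2. Traj49 (chr14:54168686-54168747, 51.8 kb) was distributed differently, with 27 UMIs in 7 wells and 9 in 1 well, P7. Wells P7, O22 and P16 held 20, 15 and 15 Traj UMIs, 50 of the 148 between them, and 10 wells held none. P7 had 1 Trac UMI beside its 20 Traj UMIs, and Spearman's rho between the CPM of Traj and of Trac was 0.26 over 43 wells. Several wells held UMIs of more than 1 of these segments, such as P16 with 1 of Traj18, 6 of Traj49, 3 of Traj27 and 2 of Traj12, and transcripts of rearranged and unrearranged segments cannot be told apart in these counts. The natural killer markers Klrb1c, Klrd1, Nkg7, Prf1 and Il2rb summed to 41 UMIs (205 CPM) in T lymphocytes. The next highest sum was 75.5 CPM, in progenitor/stem cells. Of the 43 T lymphocyte wells, 27 were at 0 for the list. Nkg7 gave 24 of these UMIs, Il2rb 11, Klrd1 5, Prf1 1 and Klrb1c 0. Il2rb was at 0 in every other population. Zbtb16, a transcription factor of natural killer T cells, was at 0 in T lymphocytes. It held at most 3 UMIs in any other population, so its 0 carries little weight. Whether natural killer T cells were present was not tested.

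**Figure D3:**
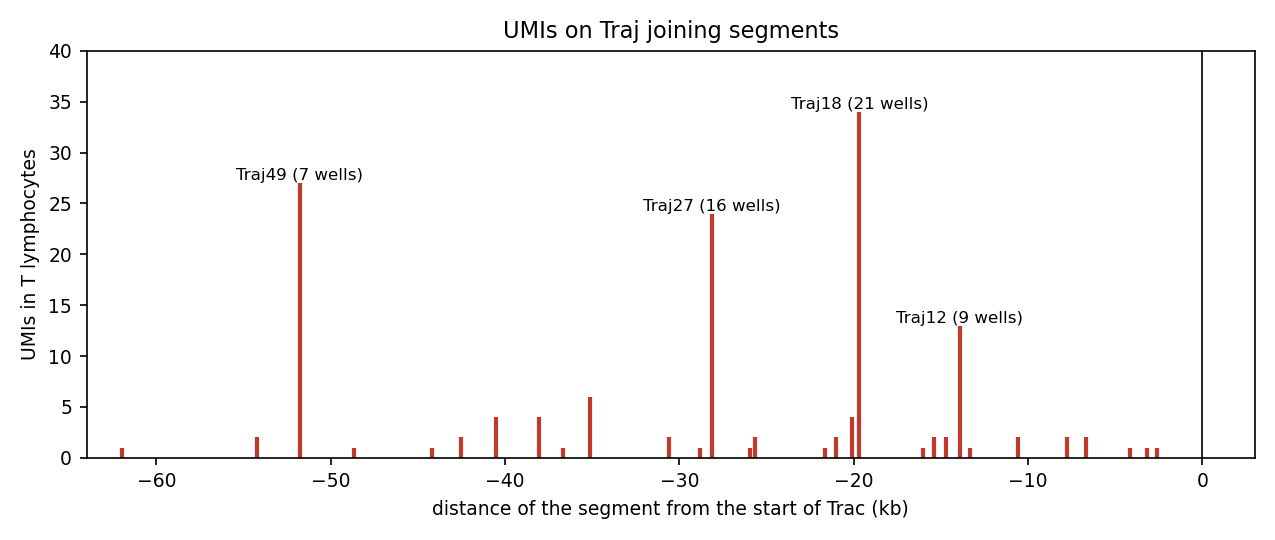
UMIs summed over the 43 T lymphocyte wells (y axis) on each Traj segment, placed by its distance in kb from the start of Trac (x axis, vertical line at 0). The 4 peaks are Traj18 with 34 UMIs, Traj49 with 27, Traj27 with 24 and Traj12 with 13, and no other segment exceeds 6.

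CD3 protein was read by index sorting, which records the antibody fluorescence of the cell in each well, so that transcripts could be set beside surface CD3. Fluorescence had a median of 10475 (4889–25573, arbitrary units) in T lymphocytes, and medians of 17.5 to 464 in the other populations. Across the 43 T lymphocyte wells Spearman's rho with fluorescence was 0.40 for Trac CPM, 0.23 for Cd3d, 0.12 for Trbc1, -0.00 for Trbc2, -0.21 for Cd3g and -0.24 for Cd3e. The value for Trac was 0.33 as Pearson's r on log scales, 0.46 in wells with at least 2000 UMIs and 0.37 without the 2 wells farthest from the median. For all 7 members together it was 0.14, and for the 3 CD3 genes together -0.11. Depth had a rho of -0.10 with fluorescence and FSC-A, a measure of cell size, 0.33, so size moved with fluorescence, and its part in the Trac value was not tested.

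**Figure D4:**
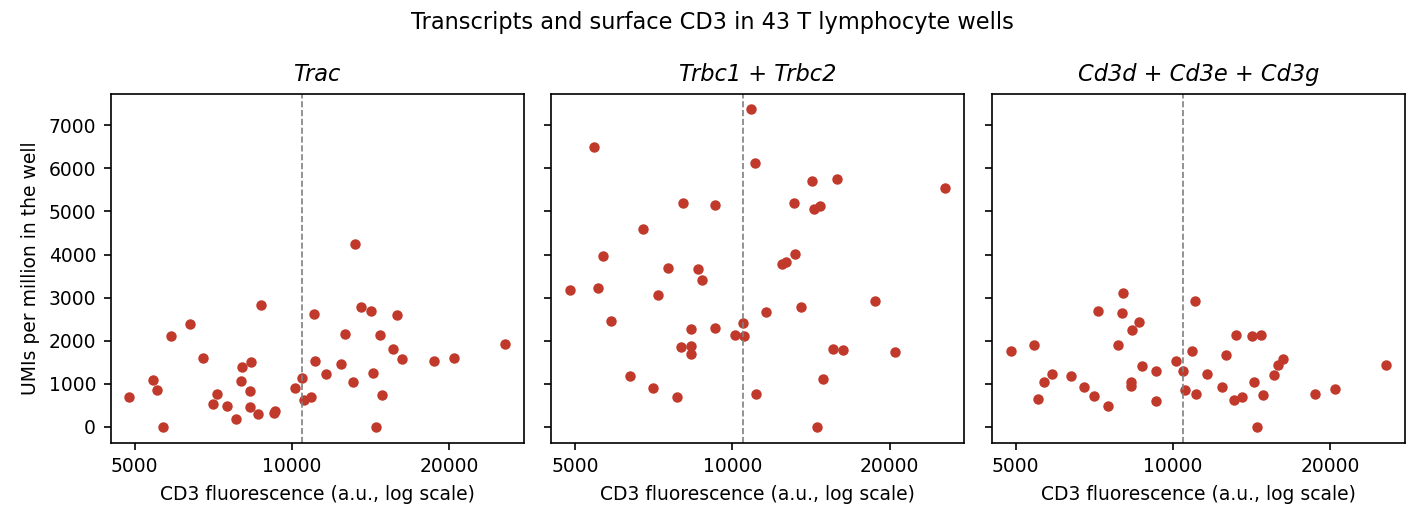
CPM in a well (y axis) against its CD3 fluorescence (x axis, log scale, arbitrary units) for Trac, for Trbc1 and Trbc2 together and for the 3 CD3 genes together in the 43 T lymphocyte wells. Each point is a well and the dashed line is the median fluorescence of 10475; the points spread widely at every fluorescence, and rho is 0.40 for Trac and -0.11 for the CD3 genes together.

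Wells were then split at the median fluorescence into 21 CD3-high wells (10532–25573; 94582 UMIs) and 22 CD3-low wells (4889–10475; 105814 UMIs). Trac had 158 UMIs in the CD3-high and 107 in the CD3-low wells (1671 and 1011 CPM), a log2 ratio of 0.72 (0.36–1.09). Trbc2 had 249 and 206 UMIs (2633 and 1947 CPM), a log2 ratio of 0.44 (0.16–0.71), which was 0.22 when each well counted equally. Trbc1 (0.22, -0.25 to 0.68), Cd3d (0.33, -0.32 to 0.98) and Cd3g (-0.24, -0.80 to 0.31) had intervals that included 0. Cd3e went the other way, with 21 and 43 UMIs (222 and 406 CPM) and a log2 ratio of -0.87 (-1.70 to -0.09), and was seen in 12 of the CD3-high and 17 of the CD3-low wells. Its log2 ratio was -0.65 in wells with at least 2000 UMIs and -0.93 when each well counted equally, with no interval computed for either. On the split of all wells the interval excluded 0 for Trac, Trbc2 and Cd3e, 3 members of 6. The same held for 13.7% (80 of 585) of all genes with at least 50 UMIs in T lymphocytes. The intervals treat UMIs as independent and leave out the spread between wells.

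The coreceptors, which bind MHC beside the receptor, were set beside the same split. Cd8a had 33 and 75 UMIs in CD3-high and CD3-low wells, a log2 ratio of -1.02 (-1.66 to -0.41), and Cd8b1 had 34 and 67, -0.82 (-1.46 to -0.20). Both were seen in 6 CD3-high and 11 CD3-low wells. Cd4 had 28 and 25 UMIs, 0.33 (-0.51 to 1.16), and the chemokine receptor gene Ccr7, higher in mature thymocytes, 41 and 32 UMIs, 0.52 (-0.18 to 1.23). The T lineage regulators Tcf7 (0.04) and Bcl11b (-0.21) and the signalling adaptor gene Lat (-0.14) were near 0 with intervals that included it. Whether the Cd8 difference between the wells bears on the Trac and Cd3e values was not tested.

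**Figure D5:**
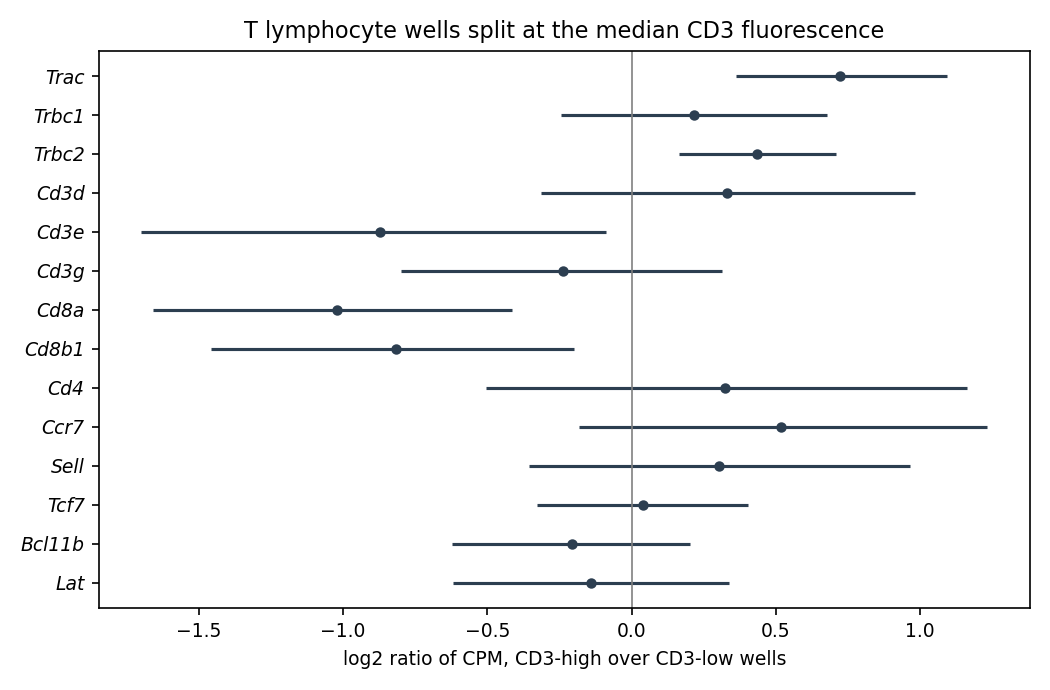
Log2 ratio of CPM in the 21 CD3-high over the 22 CD3-low T lymphocyte wells (x axis) for members and T lineage genes (y axis), with exact conditional 95% intervals for counting error. Trac (0.72) and Trbc2 (0.44) lie above 0, and Cd3e (-0.87), Cd8a (-1.02) and Cd8b1 (-0.82) lie below it.

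The genes around the receptor were read from lists of named genes, by whether the T lymphocyte interval lay above the intervals of all 4 other populations. Over all 6317 genes with at least 50 UMIs in total this held for 173, or 2.74%. It held for 7 of the 8 coreceptor and costimulatory genes, among them the coreceptors Cd8a (539 CPM), Cd8b1 (504 CPM) and Cd4 (264 CPM), the adhesion receptor Cd2 (609 CPM) and the costimulatory receptor Cd28 (324 CPM). The exception was Cd27, at 279 CPM (211–363) in T lymphocytes and 252 CPM (219–288) in progenitor/stem cells. Of 14 proximal signalling genes, 13 had a row and 6 reached 50 UMIs, and 3 of these passed, among them the adaptors Lat (768.5 CPM) and Skap1 (469 CPM). The kinases that act first at the receptor had few UMIs, with 9 for Lck (44.9 CPM) and 32 for Zap70 (160 CPM) in T lymphocytes, and both stayed under the minimum. Of 12 recombination and locus regulators, 7 reached the minimum and 3 passed: Tcf7 (1282 CPM), Bcl11b (1018 CPM) and Gata3 (190 CPM), transcription factors of the T lineage. The recombinase genes Rag1 and Rag2 were at 0 in T lymphocytes, which allows up to 15.0 CPM each by the limit of 3 UMIs, while Rag1 gave 89 UMIs (655 CPM) in B lymphocytes. Of the listed genes that passed, here and below, only Lat reached the minimum without its T lymphocyte UMIs, with 61 UMIs in progenitor/stem cells. The counts of passing genes therefore describe levels and are no independent test.

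Of 7 genes listed for immature thymocytes 3 reached the minimum and 1 passed, Cd8b1, which is also counted among the coreceptors above. The other genes that reached it were Rag1, at 0 in T lymphocytes, and Dntt, at 54.9 CPM there against 389 CPM in progenitor/stem cells. Of 5 mature thymocyte genes 5 reached the minimum and 1 passed (Ccr7, 364 CPM). The ITAM adaptors of other receptors had 0 of 4 passing: Cd79a (1149 CPM) and Cd79b (1370 CPM), which serve the B cell receptor, were highest in B lymphocytes, and Fcer1g (1100 CPM) and Tyrobp (1527 CPM), which serve Fc and myeloid receptors, in granulocytes. Their levels in T lymphocytes were 9.98, 25.0, 79.8 and 34.9 CPM. The gamma constant genes and Ptcra, the surrogate alpha chain of immature thymocytes, were not analysed here, nor were 4 of the 5 gamma delta markers.

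Likeness to the members was measured as the share that T lymphocytes held of a gene's CPM summed over the 5 populations. Cd3g was first of 6317 genes at 99.5%, Trbc1 6th at 96.3%, Cd3d 11th at 95.2%, Trac 13th at 95.2%, Cd3e 16th at 94.8% and Trbc2 25th at 88.7%. Genes with the nearest pattern included Cd8b1 (98.6%), Skap1 (98.4%), Bcl11b (97.9%), Cd6 (97.1%), Tcf7 (95.9%), Cd28 (95.5%) and Camk4 (95.4%). The ranks rest on 5 sums of 1 sample each. Ranked genes had to reach the minimum in total, and every ranked member except Trbc2 reached it only through its T lymphocyte UMIs. Cd3g had 116 of 118 UMIs there and Trac 265 of 299. The neighbours named here also reached the minimum only through T lymphocytes, such as Camk4 with 52 of 56 UMIs. T lymphocytes were sorted on CD3 as well, so the ranks describe levels and are no independent test.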

How the data were processed

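Single cells of 1 mouse were index sorted into 1 plate, and 374 wells in 5 populations were matched by well name to the labels; 9 further columns matched no sample and were not used. The deposited table holds UMI counts as whole numbers, a row per gene and a column per well. The authors made them with scPipe, which aligns reads, assigns them to exons, separates wells by barcode and collapses UMIs; the build and annotation behind the table were not given in the sources used here, nor was strand. Gene symbols came from the Ensembl IDs (19755 of 19829 mouse rows), and 74 ERCC spike-in rows stayed out of the totals.

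UMIs were summed over the wells of each population and scaled to 1000000 UMIs on mouse genes (CPM). With 1 sample per population, p-values were not computed and the likelihood-ratio test across cells was not used. Sums carry exact Poisson, shares exact binomial and ratios exact conditional binomial 95% intervals, checked on simulated data, for counting error only. For a single ratio a sum of 0 was set to a limit of 3 UMIs. Genes with at least 50 UMIs in a comparison form the background, with a log2 limit of 2 and every sum under 3 UMIs raised to 3. Shares of wells were also computed after thinning wells to 2000 UMIs. No doublet caller was run, since single cells were sorted into wells.

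Named genes were all 8 members, genes of lists for coreceptors, signalling, regulators, ITAM adaptors, thymocyte stages, cell type markers and gene segments where a result turned on them, and the genes nearest to the members in their share of CPM in T lymphocytes. One gene of these lists is not reported here. The members and lists were chosen with earlier results of these data known. Versions were Python 3.11.15, numpy 2.4.6, pandas 2.3.3, scipy 1.17.1, matplotlib 3.10.9, R 4.3.3 and edgeR 4.0.16, used for TMM factors only. Alternatives covered scaling, depth of wells, the minimum, the fold, the CD3 split and wells that stood apart. Coordinates are GRCm38 (GENCODE M21) and may differ from the build the counts were made on.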

Additional observations from a re-analysis of the deposited data

How the results depend on the processing

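No paired analysis was possible because each population was 1 sample. The replicate numbers of the wells count wells within each population and were not read as pairs between populations. No ratio of T lymphocytes to another population changed direction under the alternatives run. The summed level of the 7 members in T lymphocytes, 5744 CPM, became 7089 CPM with Gm42418 and the mitochondrial genes left out of the total and 5227 CPM with ERCC counts in it. TMM and median-of-ratios factors lowered the log2 ratio over granulocytes from 5.18 to 4.43 and 4.42, and over erythroblasts from 6.23 to 5.39 and 5.44; their factors for these populations were 0.748 and 0.702 of the total for TMM, against 1.26 for T lymphocytes. The share of T lymphocyte wells with a member UMI, 97.7%, became 99.98% after thinning, which leaves out the shallow well P4 by construction. The correlation of the summed members with CD3 fluorescence, 0.14, became -0.023 as Pearson's r on log scales; the cause was not tested. The share of all genes past the fold became 4.17%, 3.57%, 6.90% and 1.45% against B lymphocytes, granulocytes, erythroblasts and progenitor/stem cells at a log2 limit of 3, and without a minimum 1.57% against B lymphocytes and 34.0% against progenitor/stem cells, where raising sums under 3 UMIs to 3 itself sets the ratio of low genes. Wells with at least 90% Trbc2 numbered 18, and 13 to 23 under other limits. UMI depth limits the low members most: Trdc rests on 3 UMIs, and the CD3 genes on 64 to 116.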
